A study of Mus musculus with 4 samples.

Results

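Tumour necrosis factor (TNF) acts through 2 receptors, and the genes followed here are its own gene, both receptors, 3 related receptors, 2 adaptors and 2 genes known to respond to TNF. The genes are Tnf, Tnfrsf1a, Tnfrsf1b, Tnfrsf9, Ltbr, Fas, Traf1, Traf2, Tnfaip3 and Icam1. All probe sets annotated to these 10 genes were taken, with the control probe set for Fas, which gave 12 of the 12654 probe sets and 10 of 8220 genes. Of the 12 probe sets, 11 lay above 428 units on at least 1 array and 4 on all 4 arrays. This value is the 60th percentile of all scaled intensities and is used as the floor below which a level is not read.

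The study grew mouse dendritic cells, the cells that present antigen to T cells, from bone marrow progenitors that had been amplified in culture. Total RNA was measured on 4 Affymetrix arrays, 1 for each group: the progenitor, day 7 and day 10 of differentiation, and day 10 with TNF added for 16 hours. Without replicates no test was possible, and each difference below is one between 2 arrays. The labels used here give no strain, age, sex, TNF dose or differentiation factors, nor how many mice or cultures stand behind an array.

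TNF is a cytokine made by activated immune cells. Its first receptor, TNFR1 (Tnfrsf1a), carries a death domain and can lead to NF-kB activation or to cell death. Its second receptor, TNFR2 (Tnfrsf1b), has no death domain and binds TRAF adaptors directly. NF-kB then turns on genes that include its own brakes, of which A20 (Tnfaip3) is one. In dendritic cells TNF is a classical maturation signal.

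3 of the genes that were higher with TNF carry letters of an NF-kB site just before a start of transcription, and these stretches are shown. Any part of such sites in the TNF differences was not tested. The sequences are RefSeq's, on build GRCm38.p6, read 5′ to 3′ on the gene's strand, with the matched letters in capitals. The search covered the 250 bases before each start on both strands. The letters marked are those of the kB consensus motif and the form GGAATTTCC, which can overlap each other. Icam1 (chr9:21015690-21015939, plus strand) holds GGAATTTCC on the opposite strand, 153 to 145 bases before its start. Tnfaip3 has 2 starts in the table, and the window before the first (chr10:19015411-19015660, minus strand) holds GGAATTTCC 24 to 16 bases before it and the consensus, as GGGGATTTCC on the opposite strand, at 12 to 3 bases. A second match of the consensus lies at 125 to 116 bases, and the window of the other start, within the gene, holds no match. Tnfrsf9 also has 2 starts, of which the first has no match, and the second, within the gene's span, is preceded by overlapping matches 43 to 33 bases away, shown in a stretch of 30 bases (chr4:150927946-150927975, plus strand).
Icam1: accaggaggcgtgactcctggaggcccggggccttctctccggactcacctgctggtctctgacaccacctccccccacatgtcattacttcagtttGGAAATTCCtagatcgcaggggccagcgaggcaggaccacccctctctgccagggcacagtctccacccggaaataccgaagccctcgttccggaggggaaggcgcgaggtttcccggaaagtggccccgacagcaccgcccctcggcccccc
Tnfaip3: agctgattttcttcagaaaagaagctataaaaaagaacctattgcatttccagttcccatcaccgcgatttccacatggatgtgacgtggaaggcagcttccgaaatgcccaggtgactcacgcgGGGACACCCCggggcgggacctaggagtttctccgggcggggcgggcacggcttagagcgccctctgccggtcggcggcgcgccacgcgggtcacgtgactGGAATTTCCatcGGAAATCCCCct
Tnfrsf9: cagagcagctGGGGATTTCCCaggaggccc

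All 10 genes were found in the promoter table, with 12 starts between them. Either kB form was present for 3 of the 10 genes, against 8.39% of the 27025 genes in the table. The kB consensus was present for 2 of the 10 and 8.23% of all genes, and GGAATTTCC for 2 and 0.344%. For Traf1 and Fas, also higher with TNF, neither form was in the window, which says nothing of other positions. A match describes letters and shows no binding.

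On each array 22.8% to 24.3% of probe sets were below 0 and 3889 to 3991 genes lay above the floor, while the brightest signals differed between arrays, as given with the day 10 results. Most dendritic cell markers followed the labels: 3 of 14 lay above the floor in the progenitor and 13 of 14 on each later array. At day 10, 12 of 13 were at least 2-fold above the progenitor, and 1, Flt3, was at least 2-fold below it. Flt3 read 1972, 805, 517 and 614 units in the order of the arrays. A second Flt3 probe set had log2 ratios of -0.23 for day 7 over the progenitor and 1.22 for day 10 over day 7. Zbtb46 lay under the floor on all 4 arrays. T and NK cell markers, which matter because T cells also make Tnfrsf9 and Fas, had 0 or 1 of 15 above the floor on each array, and Cd3e was below 0 on all 4. B cell markers had 1, 2, 3 and 4 of 8 above it in the order of the arrays. Pax5 read 857, 1230, 2094 and 2134 units and Vpreb1 -291, 161, 1175 and 1353, while Cd79a and Cd22 were under the floor on all. Any part of such cells in the member differences was not tested. Stromal and endothelial markers had 0 or 1 of 11 above the floor. The 1 was Vwf, at 399, 7080, 13758 and 5878 units in the order of the arrays, and its source was not tested. Col1a2 was below 0 on all 4 and Cdh5 below 0 on 3. How far 2 probe sets of one gene differ in their log2 ratio gives a scale for probe error, taken over genes with both above the floor. This SD was 0.62 for the step to day 7 (373 genes), 0.71 for that from day 7 to day 10 (370 genes) and 0.56 for the TNF step (369 genes). Over the progenitor it was 0.81 at day 10 (343 genes).

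**Figure D1:**
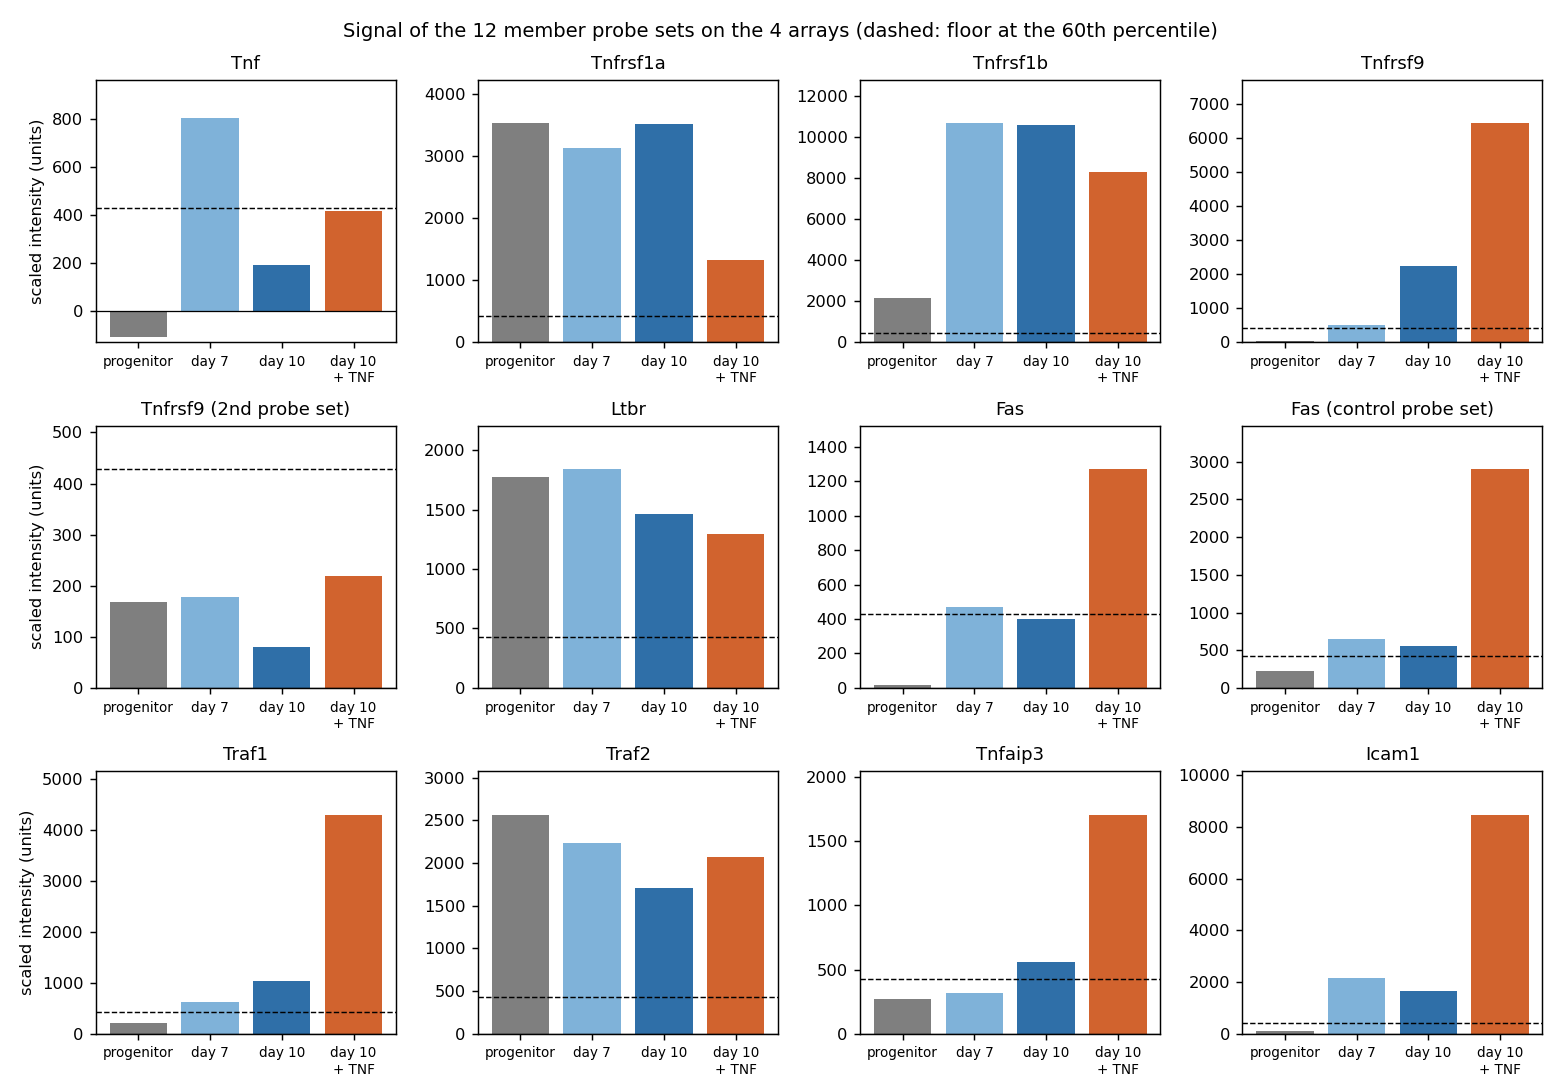
Scaled intensity in units (vertical axis, own scale in each panel) of each of the 12 probe sets on the 4 arrays; each bar is 1 array and the dashed line is the floor of 428 units. Icam1, Traf1, Tnfaip3, both Fas probe sets and the brighter Tnfrsf9 probe set are highest with TNF, Tnfrsf1a is lowest there, and the second Tnfrsf9 probe set stays under the floor.

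The ligand gene Tnf was read above the floor on a single array. Its level was -110 units in the progenitor, 805 at day 7, 191 at day 10 and 418 in cells given TNF. Day 7 therefore stood at least 1.88-fold above each other array, all of which lay under the floor. This bound is under 2-fold, and at a floor of 802 units, the 70th percentile, it was gone, with a log2 ratio of 0.01. No fold is given between day 10 with and without TNF, since both lay under the floor.

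The 2 TNF receptors followed different courses. Tnfrsf1a was at 3523 units in the progenitor, 3126 at day 7, 3513 at day 10 and 1326 with TNF. Differentiation thus left it within 1.13-fold from array to array, and only the TNF array stood apart, 2.65-fold below day 10. On the log2 scale this was -1.41, or -1.33 after quantile normalization, and 1.74% of the 4308 genes compared had a ratio at least as low.

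Tnfrsf1b was at 2132 units in the progenitor, 10673 at day 7, 10619.6 at day 10 and 8285 with TNF. It was 5.01-fold higher at day 7 than in the progenitor, a log2 ratio of 2.32 that 1.81% of 4311 genes reached or passed. Days 7 and 10 differed by 1.01-fold and TNF by 1.28-fold below day 10, both smaller than the probe error. Its signal thus moved from the 84.4th percentile of the progenitor array to the 97.5th at day 7.

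Because both receptors were read on the same arrays, the ratio of their signals does not change with a single scaling factor per array. Relative to the progenitor the Tnfrsf1b to Tnfrsf1a signal ratio was 5.64-fold higher at day 7, 5.0-fold at day 10 and 10.3-fold with TNF. Quantile normalization, which is no single factor, gave 6.24-fold, 4.80-fold and 9.88-fold. The day 7 step came from the Tnfrsf1b signal and the TNF step, 2.07-fold over day 10, from the lower Tnfrsf1a signal. These values compare the same pair of probe sets across arrays and do not give the number of one transcript relative to the other.

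Tnfrsf9, which encodes the costimulatory receptor 4-1BB (CD137), was higher on each later array than on the one before. Its brighter probe set read 34 units in the progenitor, 500.0 at day 7, 2229 at day 10 and 6418 with TNF. The day 7 value was at least 1.17-fold above the progenitor, day 10 was 4.46-fold above day 7, and TNF 2.88-fold above day 10. Against the progenitor the TNF array was at least 15.0-fold higher. The second probe set for the gene did not show this: it read 168, 178, 80 and 218 units, all under the floor, so it gives no ratio. The mean of both probe sets put the TNF log2 ratio at 0.76 in place of 1.53. That drop is fixed by construction, since a probe set under the floor on both arrays enters as 0.

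Fas, the death receptor that triggers caspase-8, was measured by a regular probe set, whose suffix marks probes shared by several transcripts, and by a control probe set. The regular one read 19 units in the progenitor, 467 at day 7, 398 at day 10 and 1269 with TNF. The control one read 218, 655, 551 and 2899 units in the same order. Both placed the 4 arrays in the same order, with TNF highest and the progenitor lowest. TNF was at least 2.96-fold above day 10 by the regular probe set and 5.26-fold by the control one, while day 10 was 1.19-fold below day 7 by the control one and under the floor by the regular one. With the floor at 802 units the regular probe set kept a TNF log2 ratio of 0.66, under 2-fold. In the progenitor both lay under the floor, and the day 7 value was at least 1.09-fold and 1.53-fold above it.

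Ltbr, the lymphotoxin beta receptor, which feeds the alternative NF-kB pathway, was the flattest of the receptors. It read 1772 units in the progenitor, 1839 at day 7, 1459 at day 10 and 1294 with TNF. No step exceeded 1.26-fold, which is within the probe error.

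The 2 adaptors also followed different courses. Traf1, which binds TNFR2 and modulates TRAF2 signalling, read 217 units in the progenitor, 631 at day 7, 1030.1 at day 10 and 4289 with TNF. It was 1.63-fold higher at day 10 than at day 7, about the size of the probe error, and 4.16-fold higher with TNF, at a log2 ratio of 2.06 reached or passed by 0.371% of the 4308 genes. Over the progenitor the TNF array was at least 10.0-fold higher. Traf2, the ubiquitin ligase adaptor shared by several of these receptors, read 2563, 2232, 1712 and 2074 units, with no step above 1.30-fold. The Traf1 to Traf2 signal ratio was 3.44-fold higher with TNF than at day 10.

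Tnfaip3, whose product A20 removes ubiquitin chains that carry the TNF signal, was near the floor until TNF was given. It read 271 units in the progenitor, 315 at day 7, 557 at day 10 and 1705 with TNF. TNF was 3.06-fold above day 10, a log2 ratio of 1.61. Day 10 was at least 1.30-fold above day 7. This is a lower bound, since day 7 lay under the floor, so the step cannot be placed within the probe error. With the floor at the 40th percentile the Tnfaip3 log2 ratio for this step was 0.83, against a probe error of 0.71.

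Icam1, the adhesion molecule on which T cells dock through the integrin LFA-1, had the largest TNF ratio of the 10 genes when each is read by its brightest regular probe set. It read 111 units in the progenitor, 2140.0 at day 7, 1654 at day 10 and 8462 with TNF. Day 7 was at least 5.0-fold above the progenitor and day 10 was 1.29-fold below day 7. TNF was 5.12-fold above day 10, a log2 ratio of 2.35 that 0.139% of 4308 genes reached or passed. Among the 10 genes it alone was at least 2-fold higher both at day 7 and with TNF, although with a floor of 105 units Tnf, Tnfrsf9, Fas and Traf1 were too.

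**Figure D2:**
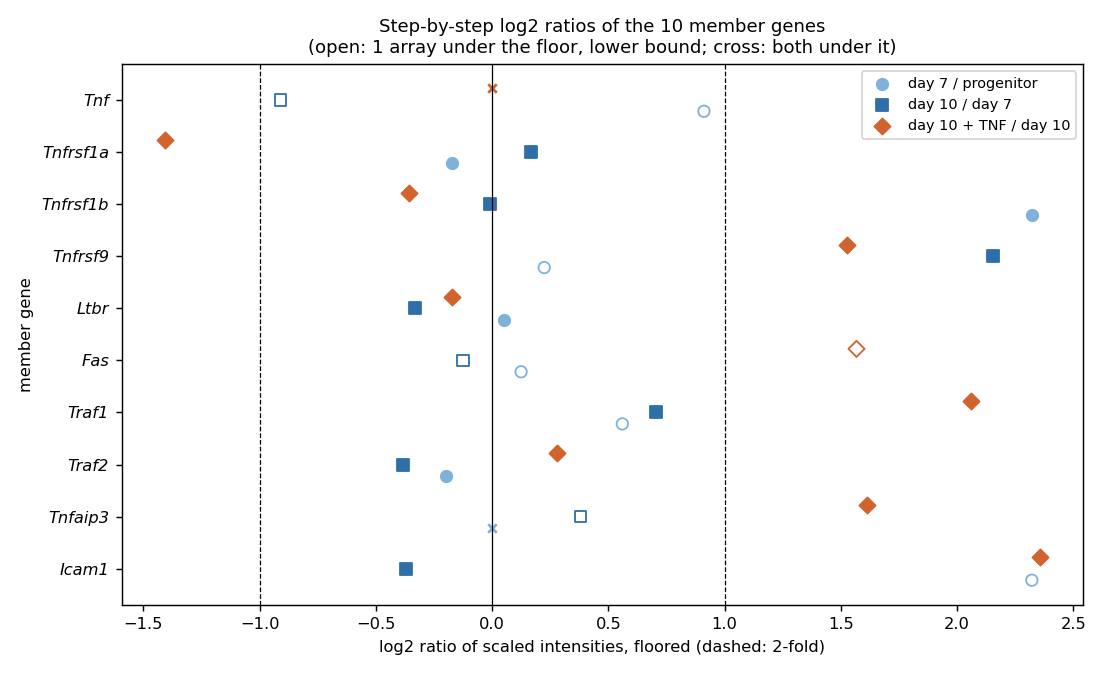
Log2 ratio of scaled intensities (horizontal axis) for each of the 10 genes (vertical axis) in 3 steps, 1 array against 1, with values under 428 units raised to it; open symbols are bounds and crosses mark genes under the floor on both arrays. The TNF step holds 5 ratios above 1 and 1 below -1, whereas the step from day 7 to day 10 holds 1 above 1.

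The differences among the 10 genes were counted for each step. At day 7, 2 of the 10, Tnfrsf1b and Icam1, were at least 2-fold above the progenitor, where 10.5% of 4311 genes were, and 0 were lower, against 9.72%. With the floor at 105 units, the 40th percentile, 6 were higher, as Tnf, Tnfrsf9, Fas and Traf1 were added, each from a progenitor signal under 428 units. Markers of other cells differed in this step too: macrophage markers had 7 of 12 higher and 1 lower, granulocyte and early myeloid markers 1 of 12 higher and 4 lower, and mast cell and basophil markers 0 of 3 higher and 2 lower. Their part in the member differences was not tested. From day 7 to day 10, 1 of the 10, Tnfrsf9, was higher, against 7.26% of 4326 genes, and 0 were lower, against 4.65%. Between these arrays the higher genes made up 61.0% of all genes counted, or 49.7% in the values as deposited and after quantile normalization. Spiked-in bacterial controls had a median log2 ratio of 1.5 there, so day and array cannot be told apart. The beta-actin and Gapdh control probe sets had medians of 3.01 and 2.11. Genes with a mean level of 1000 to 4000 units had a median ratio of 0.02, those of 4000 to 16000 units 0.17 and those above 1.15. The log2 ratio of Tnfrsf9 was 2.16 before and after quantile normalization, and the part of the array in it was not tested. The spiked-in controls also differed in the other comparisons, with medians of -0.34 for day 7 against progenitor, 1.18 for day 10 against progenitor and -0.50 for TNF against day 10.

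In cells given TNF, 5 of the 10 genes, Tnfrsf9, Fas, Traf1, Tnfaip3 and Icam1, were at least 2-fold above day 10, where 4.71% of 4308 genes were. The other direction held Tnfrsf1a alone, against 5.15% of genes. The 10 genes had been chosen with earlier results of these data known, so counts set beside these shares are descriptions only. The 5 genes higher with TNF were so too in the values as deposited and after quantile normalization. With the floor at 105 units 6 were higher, as Tnf was added. With a 3-fold rule at 428 units, 3 of the 5 stayed, Traf1, Tnfaip3 and Icam1, and Tnfrsf1a did not. Tnfrsf9 fell out at 2.88-fold, and Fas at a lower bound of 2.96-fold, where its control probe set gave 5.26-fold. Tnf lay under the floor on both arrays, and Tnfrsf1b, Ltbr and Traf2 differed by 1.13-fold to 1.28-fold. Directly against the progenitor, day 10 had 4 of the 10 genes higher, Tnfrsf1b, Tnfrsf9, Traf1 and Icam1, against 17.3% of 4460 genes, and 0 lower, against 14.8%. With the floor at 802 units Traf1 dropped out of these, at a log2 ratio of 0.36. Macrophage markers had 8 of 12 higher and 1 lower in that comparison.

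**Figure D3:**
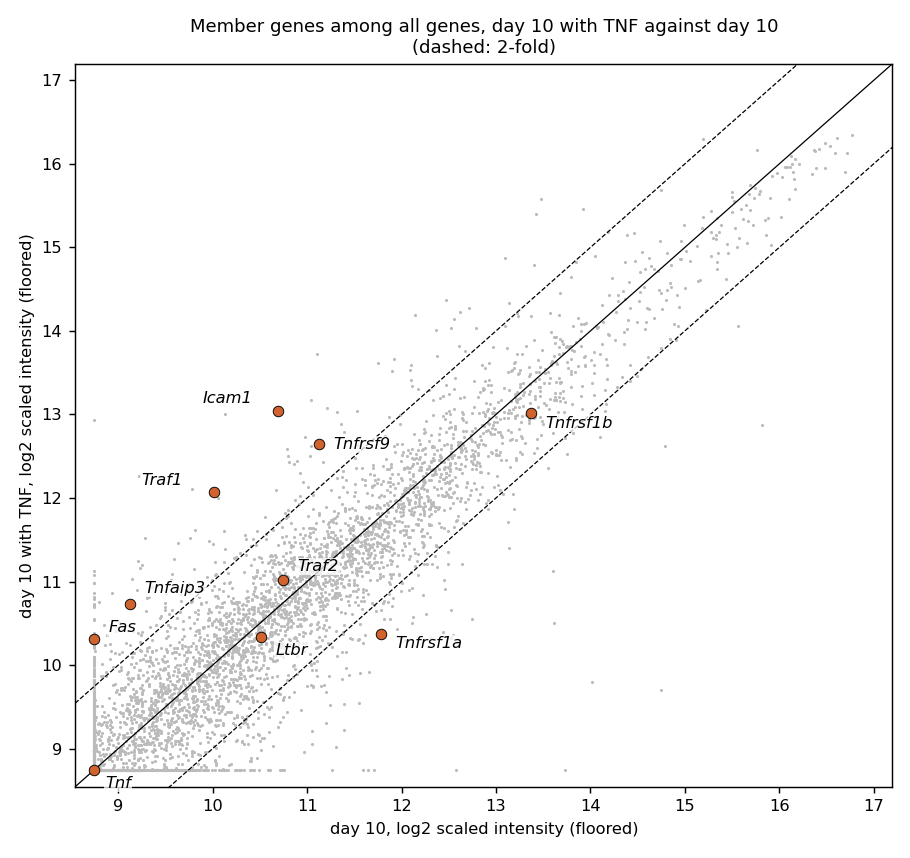
Log2 scaled intensity at day 10 (horizontal axis) against day 10 with TNF (vertical axis) for all 8220 genes (grey) and the 10 genes described (orange), 1 array per group; dashed lines mark 2-fold and values under 428 units are raised to it. Icam1, Traf1, Tnfrsf9, Tnfaip3 and Fas lie above the upper dashed line and Tnfrsf1a below the lower one.

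Markers of other cells moved in the same comparison. Of 10 granulocyte and early myeloid markers above the floor, 6 were lower with TNF and 0 higher, and the summed signal of the 12 measured was 148880 units at day 10 and 19908 with TNF, against 216351 in the progenitor and 130360 at day 7. Mpo was below 0 with TNF but already under the floor at day 10, at 200 units, so it is not among the 6. Dendritic cell markers had 6 of 13 higher and 0 lower, with sums of 356865 and 382582 units, and macrophage markers 0 of 10 higher and 2 lower, with sums of 155229 and 110096. In such bulk samples fewer cells of a type and less RNA per cell cannot be told apart, and the part of this shift in the TNF differences was not tested.

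Around these 10 genes the rest of the pathway was read from fixed lists, which share some genes. Other TNF family ligands were mostly under the floor: of 17 listed 11 were measured, and 3 lay above it at day 10 or with TNF. Ltb, which encodes the membrane anchor of lymphotoxin and so a ligand of Ltbr, read 566, 3220.0, 1429 and 579 units in the order of the arrays. It was 5.69-fold higher at day 7 than in the progenitor, then 2.25-fold lower at day 10 and 2.47-fold lower again with TNF, while its receptor gene Ltbr stayed flat. Tnfsf4, the OX40 ligand gene, read -4, 310.2, 490 and 1868 units and was 3.82-fold higher with TNF. The ligand genes of Fas and Tnfrsf9, Fasl and Tnfsf9, stayed under the floor on all arrays.

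Among other receptors of the family, 10 of 23 were measured and 5 lay above the floor at day 10 or with TNF. Cd40, the receptor through which T helper cells license dendritic cells, read -12, 170.0, 146 and 1496 units and was at least 3.49-fold higher with TNF. No other receptor of that list was counted in any step.

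Receptor-proximal signalling genes had 4 of 18 above the floor higher with TNF and 0 lower, with a median log2 ratio of 0.31 against -0.04 over all genes. Tank, which binds TRAF proteins, was 3.49-fold higher at 6167 units, Cflar, the caspase-8 inhibitor c-FLIP, 2.41-fold, Tnip1, an A20 partner, 2.14-fold, and Traf6 2.01-fold. The 2 other Traf6 probe sets gave log2 ratios of 0.77 and 0.00, the latter the value of a pair under the floor. At day 7, Tnip1 was 2.10-fold higher, Ikbke 2.24-fold lower and Traip at least 2.72-fold lower, so that 1 of 19 was counted above the progenitor and 2 below it (median 0.32 against -0.07). Traf5 was at least 3.40-fold higher at day 10 than at day 7, from -907 units to 1455, the only 1 of 19 counted in that step, where the medians were 0.00 and 0.05.

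Of the NF-kB subunits and inhibitors, 4 of 7 were higher with TNF and 0 lower (median 1.02). Nfkbia, which encodes the inhibitor IkB-alpha, was 3.41-fold higher, Relb 2.87-fold and Nfkb2 2.78-fold, and Bcl3 at least 2.03-fold. At day 7, 2 of 6 were higher, Nfkb2 by at least 3.88-fold and Relb by at least 3.19-fold, with a median of 0.70, although a second Relb probe set had a log2 ratio of 0.56, and at day 10 Nfkbie, 3.61-fold over day 7, was the 1 of 6 (median 0.65).

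Of 33 genes listed as TNF-induced 32 were measured, and 21 lay above the floor at day 10 or with TNF. Of these 21, 12 were higher with TNF and 2 lower (median 1.44), beside 4.71% and 5.15% of all genes. Among those under the floor on both arrays were Vcam1, Cxcl1, Ccl2, Il6 and Ptgs2. The transcription factor gene Junb was 8.25-fold higher at 4931 units, with a second probe set at a log2 ratio of 0.71, Il1b at least 5.03-fold, and the maturation genes Cd83 and Ccr7 4.14-fold and 3.06-fold. The lower ones were Ccl4, 2.24-fold, and Mmp9. In the same list 11 of 19 were already higher at day 7 and 1 lower (median 1.66), with Ccl22 at least 21.8-fold and Ccl3 12.2-fold higher, but from day 7 to day 10 only 1 was higher and 2 lower (median 0.35).

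The integrins that bind Icam1 were counted with other leukocyte adhesion genes. At day 7, 6 of 10 were higher and 2 lower (median 1.11), among them Itgax, at least 14.5-fold higher, Itgb2, the shared beta chain, 2.67-fold, and the junction gene F11r, 3.63-fold. From day 7 to day 10, Itgax was higher and Itgam 3.04-fold lower, 1 of 9 each (median 0.36). With TNF none of 9 was higher and Itgb7 was 2.29-fold lower (median -0.27), although a second Itgb7 probe set had a log2 ratio of 0.75.

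Genes that act after death receptors were listed for Fas. With TNF, 1 of 14, Cflar, was higher and 1, Casp6, 2.24-fold lower (median -0.15), beside 4.71% and 5.15% of all genes. Casp8 read 1609 units at day 10 and 1099 with TNF. At day 7, 3 of 14 were higher and 2 lower (median 0.29), with Bcl2l11, which encodes the death-promoting BIM, 3.21-fold and Mcl1, a survival gene, 2.31-fold higher, and Bak1 2.07-fold lower. The 2 other Bcl2l11 probe sets had log2 ratios of 0.51 and 0.00 there. At day 10, Casp6 was 2.43-fold higher and Bid 2.17-fold lower than at day 7 (median -0.41).

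**Figure D4:**
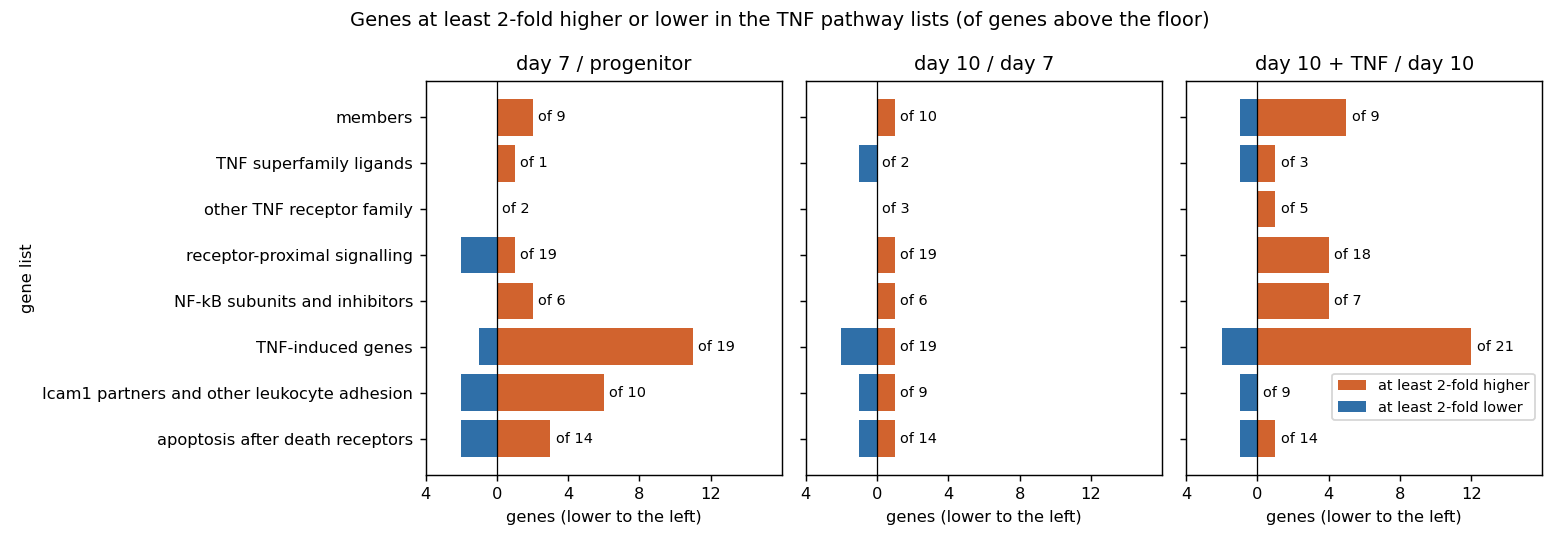
Number of genes at least 2-fold higher (orange, to the right) or lower (blue, to the left) in each list (vertical axis) for 3 steps, 1 array against 1, with the number of genes above the floor printed beside each bar. The TNF step shows 5 higher and 1 lower among the 10 genes described, 4 of 7 higher among NF-kB subunits and inhibitors, and 12 of 21 among genes listed as TNF-induced. The lists were chosen with earlier results of these data known.

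The genes with the most similar courses were found among 3736 genes above the floor on at least 3 arrays, as the smallest distance between log2 profiles centred on their mean over the 4 arrays. For Icam1 the nearest was Ly75, which encodes the endocytic receptor DEC-205, at a distance of 0.27, with 283, 2629, 2103 and 9267 units. For Traf1 they were Procr and Stat5a at 0.43 and 0.49, and for Tnfrsf9 they were Plk2 and Pdzk1ip1 at 0.75 and 0.91. Tnfrsf1b lay nearest to Renbp and Sgpl1 at 0.15 and 0.20, and Tnfrsf1a to Eif4g3 and Ssbp4 at 0.11 and 0.15. The flat genes Ltbr and Traf2 had neighbours within 0.09, Vac14 and Nr1i3 for the first, Ankrd17 and Pcid2 for the second. With 4 arrays, many genes share a course, and these distances are descriptions.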

How the data were processed

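RNA of 4 mouse samples was hybridised to Affymetrix arrays, 1 per group, and their number limits the precision. The authors deposited linear probe-set intensities; neither the labels nor the table state the software or background method. The middle 96% of probe sets average 1000.0 on every array, so brightness had been matched. The platform annotation named 10298 probe sets by 1 symbol (10279 updated by gene number), 363 by several and 1993 by none. The last 2 kinds were left out, as were 66 control probe sets except that for Fas.

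All arrays were brought to the same 75th percentile (factors 0.962 to 1.05), raised to a floor of 428 units and put on the log2 scale (Python 3.11.15, pandas 2.3.3). A gene was read by its brightest probe set and counted when 2 arrays differed at least 2-fold, with 1 above the floor. Folds with 1 array under the floor are bounds ("at least"). Scaling and counting were tested on simulated data. Changes were planted only in genes well above the floor and larger than 2-fold, so finding changes near the floor or near 2-fold was not tested. Named were all members, up to 4 genes with the largest ratio per list and step, and the 2 nearest profiles. Casp8, Fasl, Tnfsf9 and Mmp9 were added after their values were seen, and Vcam1, Cxcl1, Ccl2, Il6 and Ptgs2 were named as examples under the floor. Members and lists were chosen with earlier results of these data known. Alternatives were other scalings, floors, fold rules and probe-set rules.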

Additional observations from a re-analysis of the deposited data

How the results depend on the processing

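Of 72 alternative counts, 66 stayed within 1.5 times the reported one, and of 244 alternative log2 ratios, 221 moved by less than the probe error of their comparison and 0 that had been counted changed sign. Part of this was fixed beforehand, so the tally is no measure of robustness. Averaging cannot move a gene with 1 regular probe set, ratios between 2 arrays under the floor stay at 0, and the scaling factors were only 0.962 to 1.05. With the floor at the 40th percentile the genes higher at day 7 than in the progenitor were 6 and those lower at day 10 than at day 7 were 1, Tnf. With a 3-fold rule the genes higher with TNF were 3 and those lower 0. With a 1.5-fold rule the genes higher at day 10 than at day 7 were 2 and those lower 1. A lower floor widens a ratio against a dim array by construction: Icam1 at day 7 had a log2 ratio of 4.26 at the 40th percentile and 1.42 at the 70th, against 2.32. Averaging the probe sets moved Tnfrsf9 by construction, since its second probe set, under the floor, enters as 0. Reading Fas by its control probe set, an alternative chosen after seeing the data, moved its TNF log2 ratio from 1.57 to 2.39. No replicate could be left out, and no paired analysis was possible because each group has 1 array.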
